A study of Homo sapiens with 8 samples.

Results

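Transcripts of 10 genes that make or remove superoxide and peroxides were followed in TeloHAEC, a telomerase-immortalised line of human aortic endothelial cells. The genes were taken by symbol from the 34415 genes of the deposited table, and all 10 were found: NOX4, CYBA, SOD1, SOD2, CAT, GPX1, GPX4, PRDX1, PRDX3 and TXN. The study asked what the hormone estradiol does to these cells when palmitic acid, a saturated fat, is added to imitate conditions that favour atherosclerosis. It compared 4 control libraries with 4 libraries of cells given estradiol. The titles place palmitic acid in all 8 samples, and the labels give the genotype of all 8 as WT, so no sample without palmitic acid was compared. The treatment label reads Control for the control samples and PA-supplied for the estradiol samples, and the groups were therefore taken from the titles. The labels give no dose, no time of exposure and no statement that replicates were separate cultures. The p-values thus refer to the spread among these 8 libraries alone, and that spread may be technical.

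These enzymes form a chain. NADPH oxidases pass electrons from NADPH to oxygen and so form superoxide or hydrogen peroxide, and NOX4, which works with the membrane subunit encoded by CYBA, is known as a major oxidase of endothelial cells. Superoxide dismutases turn superoxide into hydrogen peroxide, which catalase, glutathione peroxidases and peroxiredoxins then break down, the last with electrons from thioredoxin. In arteries superoxide also destroys nitric oxide, the vasodilator made by the endothelium.

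The chemistry of the peroxide-removing members rests on a few codons, shown here because these transcripts also span the range of base composition along which the libraries differed. GPX1 and GPX4 carry selenocysteine, read from an in-frame TGA codon, whereas PRDX1 and PRDX3 use a cysteine that the peroxide oxidises and TXN a pair of cysteines in its active site. Each line gives 120 bases of the coding sequence, 5′ to 3′, from GENCODE v29 transcripts, with the catalytic codons in capitals (selenocysteine in GPX1 and GPX4, peroxidatic cysteine in PRDX1 and PRDX3, the active-site stretch in TXN).
GPX1: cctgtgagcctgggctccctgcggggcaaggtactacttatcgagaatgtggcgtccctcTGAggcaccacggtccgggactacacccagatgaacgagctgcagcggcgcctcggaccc
GPX4: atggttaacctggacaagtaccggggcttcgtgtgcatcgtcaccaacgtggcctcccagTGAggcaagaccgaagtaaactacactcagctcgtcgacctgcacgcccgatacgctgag
PRDX1: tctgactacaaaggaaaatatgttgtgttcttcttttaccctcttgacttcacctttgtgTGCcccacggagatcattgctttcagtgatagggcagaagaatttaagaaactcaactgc
PRDX3: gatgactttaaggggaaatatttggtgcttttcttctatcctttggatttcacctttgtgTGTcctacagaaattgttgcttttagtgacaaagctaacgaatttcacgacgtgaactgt
TXN: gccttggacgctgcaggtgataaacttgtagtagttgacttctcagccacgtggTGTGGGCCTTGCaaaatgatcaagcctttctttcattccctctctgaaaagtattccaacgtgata
Counted from the start codon, the selenocysteine codon was codon 49 of GPX1 and codon 73 of GPX4, the peroxidatic cysteine codon 52 of PRDX1 and 108 of PRDX3, and the TXN stretch codons 32 to 35. The GC content of the window was 65.0% for GPX1 and 57.5% for GPX4, against 40.8% for PRDX1, 37.5% for PRDX3 and 45.8% for TXN. Over the whole coding sequence it was 64.9%, 60.1%, 46.1%, 48.0% and 43.2% in the same order.

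Levels are given as FPKM, fragments per kilobase of gene model scaled to the total of the library, as the authors deposited them. Reads recovered from the steps between FPKM values gave depths of 33421051 to 39899258 reads per library. Control replicate 3 and estradiol replicate 4 stood apart from the other 6 libraries along GC content, and each group held 1 of them. Values below are therefore also given for those 6 libraries. Of 10 endothelial markers 9 had a mean of at least 1 FPKM, with a summed level of 429 to 579 FPKM in control and 427 to 558 FPKM in estradiol libraries. The exception was VWF, which encodes von Willebrand factor, at 0.231 to 0.362 FPKM. Among marker genes for other cells, 2 of 8 myeloid (LAPTM5 and CD68, at means of 49.7 and 40.4 FPKM in controls), 4 of 6 epithelial (KRT7, KRT8, KRT18 and KRT19), 2 of 5 smooth muscle (ACTA2 and TAGLN) and 0 of 6 fibroblast genes reached that mean. Their summed levels in control and estradiol libraries were 78.7 to 96.4 and 81.6 to 93.9 FPKM for the myeloid, 93.5 to 144 and 95.2 to 131 FPKM for the epithelial and 15 to 21.2 and 13.9 to 22.2 FPKM for the smooth muscle list. The defining leukocyte gene PTPRC had 0 to 2 reads per library, the epithelial genes EPCAM and CDH1 0 or 1, and NCF4, DES and LUM were listed at 0 throughout.

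No member differed between estradiol and control beyond the spread between libraries. Of the 9 members with a mean of at least 1 FPKM, 0 passed the limma test (adjusted p = 0.999989 for each), and 0% of the 10720 genes tested were called higher and 0% lower. At an unadjusted p under 0.05 there were 0 of the 9, beside 26 genes or 0.243% of all tested. Without any difference a share near 0.05 is expected, so this fit called few genes and 0 of the 9 says little. With a term for control replicate 3 and estradiol replicate 4, chosen after seeing the data, 351 genes had an unadjusted limma p under 0.05. With limma-voom on the recovered reads, added after seeing the data, 0 genes were called and 23 had an unadjusted p under 0.05. The 95% intervals of the 9 log2 fold changes lay between -0.40 and 0.37. The groups overlapped for all 10 members, and 0.532% of the genes tested had groups that did not overlap. The median log2 fold change of the 9 was -0.006, with 4 positive and 5 negative, and that of all genes tested was -0.00047. Fold changes are on the log2(FPKM + 1) scale, where changes of low genes come out too small. The labels describe bulk RNA, in which fewer cells of a type and less RNA per cell cannot be told apart.

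**Figure D1:**
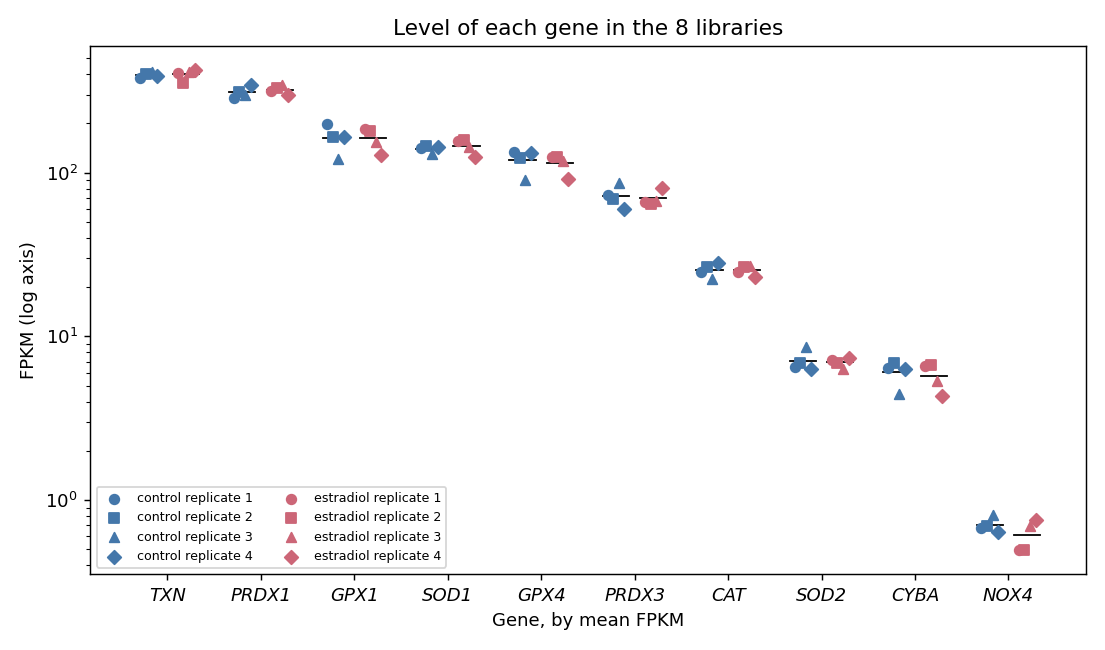
FPKM of each gene (log axis) in the 4 control libraries (blue) and the 4 estradiol libraries (red), with a symbol for each replicate number and a black line at the group mean. The groups overlap for every gene, and the levels run from TXN at a mean of 398 FPKM down to NOX4 at 0.657 FPKM.

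NOX4, an oxidase and so a source of superoxide or hydrogen peroxide, was the lowest member. Its FPKM was 0.674, 0.694, 0.81 and 0.637 in control replicates 1 to 4 and 0.494, 0.495, 0.691 and 0.761 in estradiol replicates 1 to 4. Estradiol replicates 1 and 2 were the lowest of the 8 libraries, while estradiol replicates 3 and 4 lay within the control range. The means were 0.704 ± 0.0749 FPKM in controls and 0.61 ± 0.137 FPKM with estradiol (mean ± SD of 4 libraries each; exact permutation p = 0.286, two-sided). With 93 to 171 reads per library, counting alone gives a coefficient of variation of 8.38%, and the observed one was 10.6% in control and 22.4% in estradiol libraries. NOX4 fell under the filter of 1 FPKM, so it had no place in the limma fit. Its log2 fold change was -0.08 at a pseudocount of 1 and -0.19 at a pseudocount of 0.1.

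CYBA encodes p22phox, the small membrane subunit that stabilises NOX4 and other oxidases. Its FPKM was 6.45, 6.91, 4.46 and 6.31 in control replicates 1 to 4 and 6.58, 6.71, 5.35 and 4.34 in estradiol replicates 1 to 4. The lowest library of each group was the one that stood apart on GC content, and the other 6 lay between 5.35 and 6.91 FPKM. The log2 fold change was -0.06 ± 0.15 (SE, limma, 95% interval -0.40 to 0.28). The FPKM ratio of CYBA to NOX4 ranged from 5.5 to 13.6, with 8.74 ± 2.16 in controls and 10.1 ± 3.97 with estradiol (mean ± SD of 4 libraries each). In reads the ratio was 2.51 to 6.18, with gene models of 2564 bases for CYBA and 5624 for NOX4. The median lengths of their protein-coding transcripts in GENCODE v29 are 618 and 1969 bases, so the ratio depends on the lengths used.

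The dismutases stood far apart on the deposited scale. SOD1, the copper-zinc enzyme of the cytosol, measured 142, 146, 130 and 143 FPKM in control replicates 1 to 4 and 155, 159, 144 and 125 FPKM in estradiol replicates 1 to 4. Estradiol replicates 1 and 2 lay above every control library and estradiol replicate 4 below every one. The log2 fold change of SOD1 was 0.05 ± 0.10 (SE, limma, 95% interval -0.17 to 0.27). In the 6 libraries it was 0.09 (limma adjusted p = 0.991), and between control replicate 3 and estradiol replicate 4 it was -0.06.

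SOD2, the manganese enzyme of mitochondria, is known to be induced by inflammatory signals. It measured 6.52, 6.85, 8.56 and 6.31 FPKM in control replicates 1 to 4 and 7.19, 6.85, 6.35 and 7.37 FPKM in estradiol replicates 1 to 4. Control replicate 3 was the highest library and estradiol replicate 4 the next. The log2 fold change was -0.02 ± 0.10 (SE, limma, 95% interval -0.24 to 0.21), 0.04 in the 6 libraries and -0.19 between control replicate 3 and estradiol replicate 4.

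How far SOD2 lay below SOD1 depended on the length used for scaling. By FPKM SOD1 was 15.2 to 23.2 times SOD2, but the recovered reads, which are not scaled by length, gave a ratio of SOD1 to SOD2 of 0.773 to 1.18. The gene model behind the FPKM was 17592 bases for SOD2 and 895 bases for SOD1. GENCODE v29 lists 11 protein-coding SOD2 transcripts, of 507 to 14266 bases. Where short transcripts make up most of the SOD2 RNA, a length of 17592 bases understates its level per transcript, and which of them these cells express was not measured here. SOD2 exons also share 1141 bases with ACAT2 and 437 with WTAP on the opposite strand, of 18206 exonic bases in GENCODE v29. They share 939 bases with SOD2-OT1 on the same strand, which stood at 0.0148 to 0.074 FPKM. Whether reads were counted by strand, and how reads in shared bases were counted, is not stated, which leaves the level of SOD2 uncertain.

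**Figure D2:**
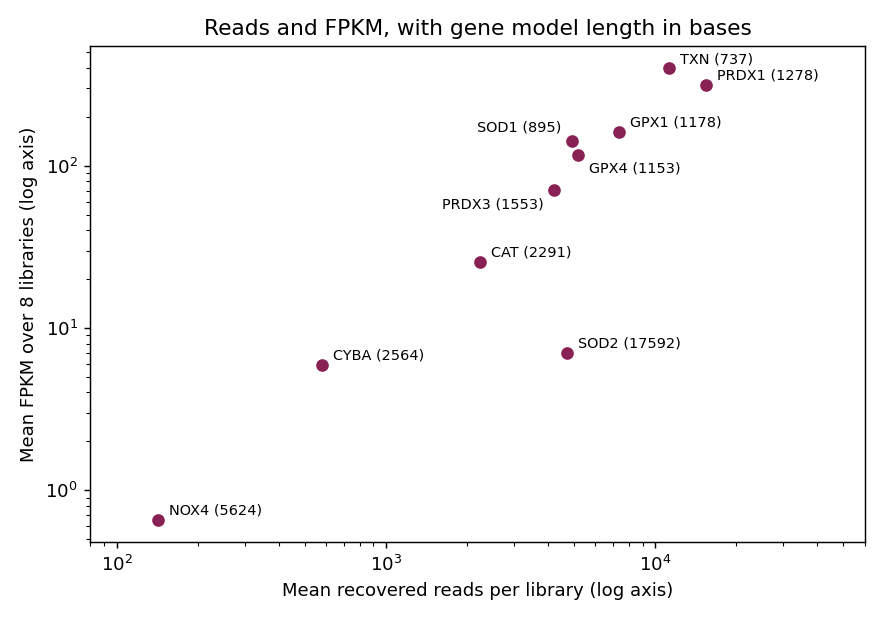
Mean FPKM over the 8 libraries (log axis) against mean recovered reads per library (log axis) for each gene, with the length in bases of the gene model behind its FPKM in brackets. SOD2, with a gene model of 17592 bases, has about as many reads as SOD1 but an FPKM near that of CYBA.

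Catalase, the peroxisomal enzyme encoded by CAT, varied little between libraries. It measured 24.7, 26.6, 22.5 and 27.9 FPKM in control replicates 1 to 4 and 24.7, 26.4, 26.9 and 23.2 FPKM in estradiol replicates 1 to 4. The lowest library of each group was again control replicate 3 and estradiol replicate 4. Its log2 fold change was -0.01 ± 0.10 (SE, limma, 95% interval -0.22 to 0.21), and the highest library was 1.24 times the lowest.

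Both glutathione peroxidases were low in the libraries that stood apart. GPX1, which reduces hydrogen peroxide in the cytosol and mitochondria, measured 197, 165, 121 and 166 FPKM in control replicates 1 to 4 and 186, 179, 153 and 129 FPKM in estradiol replicates 1 to 4. GPX4, which reduces lipid peroxides within membranes and restrains ferroptosis, measured 134, 123, 90.5 and 132 FPKM in control replicates 1 to 4 and 125, 124, 117 and 92.1 FPKM in estradiol replicates 1 to 4. For both genes control replicate 3 was the lowest library and estradiol replicate 4 the next. The log2 fold change of GPX1 was 0.00 ± 0.16 (SE, limma, 95% interval -0.36 to 0.37), the widest interval of the 9. For GPX4 it was -0.06 ± 0.15 (SE, limma, 95% interval -0.39 to 0.27), and -0.09 in the 6 libraries (limma adjusted p = 0.991). The FPKM ratio of GPX1 to GPX4 stayed between 1.26 and 1.49 while each gene alone varied 1.62 and 1.48 times. It was 1.35 ± 0.0876 in controls and 1.41 ± 0.0774 with estradiol (mean ± SD of 4 libraries each).

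Peroxiredoxins, which clear low levels of peroxide, were abundant. PRDX1, the cytosolic form, measured 285, 312, 297 and 342 FPKM in control replicates 1 to 4 and 314, 329, 341 and 300 FPKM in estradiol replicates 1 to 4. All 4 estradiol libraries lay within the control range. Its log2 fold change was 0.06 ± 0.09 (SE, limma, 95% interval -0.14 to 0.25), with the smallest unadjusted limma p of the 9 at 0.533. PRDX1 exons share 379 of 1522 bases with MMACHC on the opposite strand in GENCODE v29, whose own level was 1.05 to 3.09 FPKM.

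PRDX3, the mitochondrial form, measured 72.7, 69.1, 86.6 and 59.7 FPKM in control replicates 1 to 4 and 66.3, 64.4, 67.3 and 81.1 FPKM in estradiol replicates 1 to 4. Here control replicate 3 and estradiol replicate 4 were the highest libraries, the reverse of the glutathione peroxidases. Between the groups the log2 fold change was -0.04 ± 0.13 (SE, limma, 95% interval -0.32 to 0.24). The FPKM ratio of PRDX1 to PRDX3 was 4.4 ± 0.987 in controls and 4.65 ± 0.658 with estradiol (mean ± SD of 4 libraries each).

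TXN encodes thioredoxin, which hands electrons to peroxiredoxins, and it had the highest FPKM of the members. In reads, which are not scaled by length, it was below PRDX1 in every library, with a ratio of TXN to PRDX1 of 0.621 to 0.815 and gene models of 737 and 1278 bases. It measured 376, 400, 414 and 392 FPKM in control replicates 1 to 4 and 409, 355, 413 and 424 FPKM in estradiol replicates 1 to 4. The lowest library, estradiol replicate 2, was also the one with the fewest reads in all, and SOD1 was highest in that library, at 159 FPKM. The part of depth was not tested. The highest library for TXN was estradiol replicate 4. The log2 fold change was 0.01 ± 0.09 (SE, limma, 95% interval -0.18 to 0.20), the narrowest interval of the 9. GENCODE v29 names 7 pseudogenes after TXN, 4 after PRDX3, 3 after SOD1, 2 after GPX1 and 1 each after SOD2 and PRDX1. None of these pseudogenes is among the deposited genes. How reads shared with such copies were counted is not given, so the levels of these members are uncertain to that extent.

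**Figure D3:**
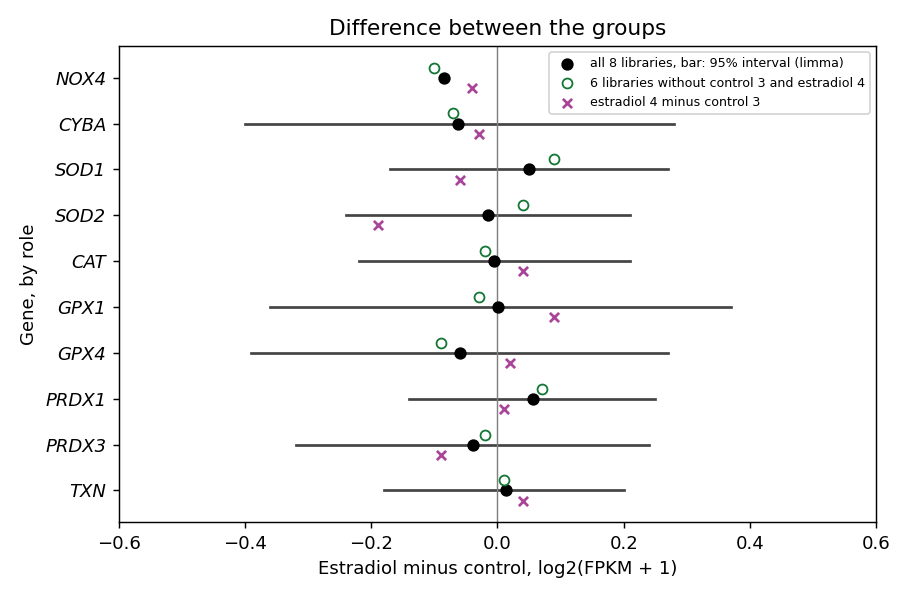
Difference of estradiol minus control on the log2(FPKM + 1) scale for each gene, in order of role. Black points are the difference over 8 libraries with the 95% limma interval as a bar (none for NOX4, which was under the filter), open circles the difference in 6 libraries and crosses the single difference of estradiol replicate 4 minus control replicate 3. Every interval spans 0.

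In order of FPKM, TXN ranked 115th and PRDX1 145th of all genes in the table by mean, followed by GPX1 (297th), SOD1 (347th), GPX4 (447th) and PRDX3 (780th). CAT ranked 2245th, SOD2 6150th, CYBA 6712th and NOX4 11376th. Neighbours in this order that overlapped over the 8 libraries were GPX1 and SOD1, SOD1 and GPX4, and SOD2 and CYBA. GPX1 was above SOD1 in 7 of 8 libraries, SOD1 above GPX4 in 8 of 8 and SOD2 above CYBA in 6 of 8. The other neighbours did not overlap. On this scale PRDX3, GPX4, SOD1, GPX1, PRDX1 and TXN stood at 59.7 FPKM or more in every library, and CYBA and NOX4 at 6.91 FPKM or less. The order holds for the gene-model lengths behind the deposited FPKM, and for SOD2, CYBA, NOX4, GPX1, GPX4 and PRDX1 these lengths exceed every protein-coding transcript in GENCODE v29.

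Members differed among themselves in how they followed the libraries that stood apart. In control replicate 3 and estradiol replicate 4, GPX1, GPX4 and CYBA were lower than in the other 6 libraries by 0.47, 0.46 and 0.45 on the log2 scale (differences of -0.47, -0.46 and -0.45), and their transcripts had GC contents of 63.1%, 63.4% and 63.8% in GENCODE v29. PRDX3, SOD2, NOX4 and TXN were higher there, with differences of 0.33, 0.22, 0.15 and 0.10 and GC contents of 41.9%, 45.2%, 41.8% and 38.4%. SOD1, CAT and PRDX1 were lower, with differences of -0.22, -0.19 and -0.10 and GC contents of 49.9%, 45.3% and 49.8%. CAT and SOD2 thus differed in sign at nearly the same GC content. Across the 10 members, which share these libraries, the rank correlation of the difference with GC content was -0.83, and across 10250 tested genes with a GC value it was -0.90. The middle 50% of tested genes ran from -0.37 to 0.27. The part of base composition in these differences was not tested.

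**Figure D4:**
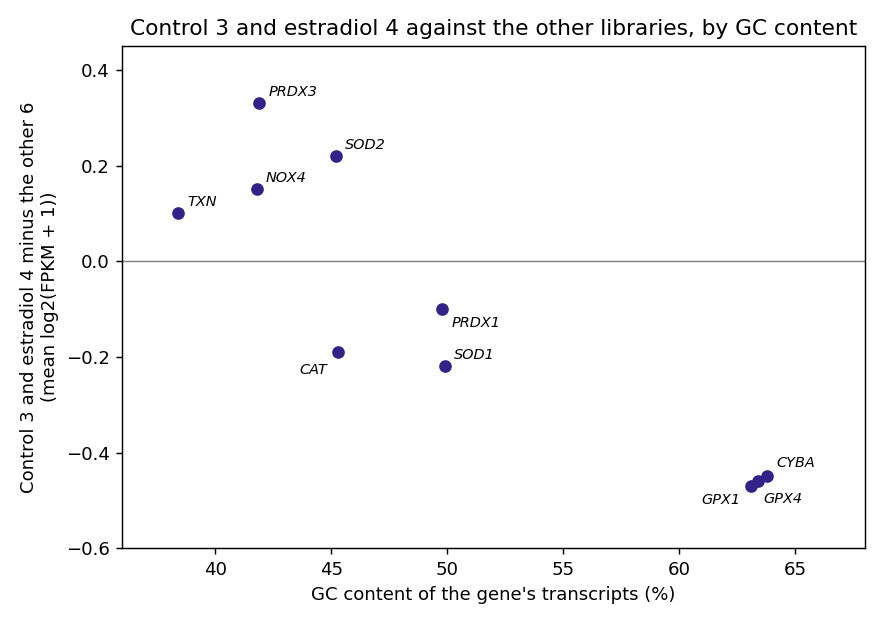
Mean log2(FPKM + 1) in control replicate 3 and estradiol replicate 4 minus the mean of the other 6 libraries, against the GC content of the transcripts of each gene (percent). GPX1, GPX4 and CYBA lie near 63% GC and -0.46, and PRDX3 lies highest at 0.33.

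Each group held 1 of the libraries that stood apart, control replicate 3 and estradiol replicate 4. Without both, the log2 fold change was -0.09 in place of -0.06 for GPX4 and -0.03 in place of 0.00 for GPX1. With a term for these libraries, chosen after seeing the data, the SE of the log2 fold change was 0.04 for GPX4, 0.05 for SOD1 and 0.08 for GPX1 in place of 0.15, 0.10 and 0.16. It was 0.06 for PRDX1 and 0.05 for TXN in place of 0.09 and 0.09. A term for libraries already seen to stand apart tends to lower the SE. No member passed in that fit either (smallest unadjusted limma p 0.211, for GPX4, and adjusted p = 0.999956). In the 6 libraries all 10 members still overlapped between the groups, where 9.52% of the genes tested did not.

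On the log2(FPKM + 1) scale the members with the widest range over the libraries were GPX1, at 0.69, and CYBA, at 0.57. The pseudocount decides this order, since NOX4 had a range of 0.28 on that scale but the largest ratio of highest to lowest FPKM, at 1.64 against 1.62 for GPX1 and 1.59 for CYBA. The tested genes closest to GPX1 over the 8 libraries, by the root mean square difference of their log2 deviations from their own means, were RABL6 (0.023), STUB1 (0.024) and RHOT2 (0.026), against a root mean square deviation of 0.229 for GPX1 itself. Their GC contents were 63.4%, 64.3% and 64.9%. Closest to CYBA were LIMD2 (0.042), CDIP1 (0.045) and BIN3 (0.046), against 0.213 for CYBA itself, with GC contents of 65.5%, 60.1% and 56.4%.

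The promoters of GPX1 and CYBA are shown because these members had the widest range on the log2(FPKM + 1) scale. Each line gives 300 bases around the start site from RefSeq on GRCh38.p14, 5′ to 3′ on the strand of the gene, with GC boxes in capitals (letters GGGCGG on either strand). The GPX1 window is chr3:49358304-49358603 and the CYBA window chr16:88651004-88651303, both on the minus strand.
GPX1: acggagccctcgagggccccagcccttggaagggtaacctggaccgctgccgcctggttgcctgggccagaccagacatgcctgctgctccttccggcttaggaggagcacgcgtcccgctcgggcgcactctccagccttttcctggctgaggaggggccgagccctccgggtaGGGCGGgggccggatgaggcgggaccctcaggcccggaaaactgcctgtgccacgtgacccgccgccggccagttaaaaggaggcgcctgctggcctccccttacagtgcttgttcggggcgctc
CYBA: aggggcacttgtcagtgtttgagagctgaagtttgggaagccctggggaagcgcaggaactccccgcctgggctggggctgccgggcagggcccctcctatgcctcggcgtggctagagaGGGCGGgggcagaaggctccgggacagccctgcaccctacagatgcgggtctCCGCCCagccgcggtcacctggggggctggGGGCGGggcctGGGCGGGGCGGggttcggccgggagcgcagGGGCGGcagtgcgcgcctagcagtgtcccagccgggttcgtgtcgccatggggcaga
The GPX1 window held 1 GC box and the CYBA window 6, 1 pair of which shares a base. Several windows of 1 gene can overlap. GC boxes occurred in 13 of the 15 windows listed for 8 members (SOD1 and PRDX1 had no entry) and in 45% of the 35116 windows of that length. The palindromic estrogen response element occurred in 0 of the 15 windows and in 0.057% of all windows, and the antioxidant response element core TGACNNNGC in 0 of 15 and 13.3%. The forkhead letters GTAAACA occurred in 0 of 15 and 3.42%, a consensus NF-kB site in 0 of 15 and 0.191%, and the TATA box TATAAA in 1 of 15, that of TXN, and 11.5%. Both strands were searched, and a match or its absence says only whether those letters lie in these windows.

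Of 53 other genes of the pathway, 35 had a mean of at least 1 FPKM, and 0 of the 35 passed the limma test in either direction. None reached an unadjusted p under 0.05, beside 0.243% of all genes tested, and their median log2 fold change was -0.002, with 17 positive and 18 negative. The groups of 1 of the 35 did not overlap in either direction, beside 0.532% of all genes tested. Estradiol was higher for this gene, as in 0.308% of all genes tested. This was SECISBP2, which encodes the protein that binds the signal for selenocysteine insertion. It measured 9.49 ± 0.123 FPKM in controls and 10.1 ± 0.289 FPKM with estradiol (mean ± SD of 4 libraries each; log2 fold change 0.08 ± 0.07 SE, limma adjusted p = 0.999989). SEPHS2, which makes the selenium donor for GPX1 and GPX4, stood at 74.8 ± 1.66 and 71.5 ± 4.11 FPKM in controls and with estradiol (mean ± SD of 4 libraries each).

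Of 18 oxidase genes and partners, 5 were tested, and none of the catalytic oxidases was among them. CYBB, the phagocyte oxidase, had 0 or 1 read per library, DUOX1 had 0 to 5 reads, and NOX5 was listed at 0 throughout. RAC2 and CYBC1, an oxidase-activating GTPase and a chaperone of the oxidase heterodimer, had log2 fold changes of -0.05 and -0.05 (SE 0.13 and 0.14). SOD3, the extracellular dismutase, was listed at 0 in all 8 libraries. CCS, which loads copper into SOD1, stood at 15.9 ± 1.81 FPKM in controls and 16.8 ± 3.16 FPKM with estradiol (mean ± SD of 4 libraries each).

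Other peroxide-removing genes gave small differences as well. GPX7 and GPX8, glutathione peroxidases of the endoplasmic reticulum, had log2 fold changes of -0.13 ± 0.09 and -0.06 ± 0.14 (SE, limma), with 3 of 6 other glutathione peroxidases tested. All 4 other peroxiredoxins were tested, and PRDX5 and PRDX2 stood at 0.08 ± 0.16 and -0.03 ± 0.16. TXNRD1, the reductase that recharges thioredoxin, was at 760 to 907 FPKM over the libraries, with a log2 fold change of -0.01 ± 0.08. TXNIP, which binds and restrains thioredoxin, stood at 19 ± 0.713 FPKM in controls and 18 ± 0.713 FPKM with estradiol (mean ± SD of 4 libraries each; log2 fold change -0.07 ± 0.08 SE). SESN1, a sestrin, was at 0.04 ± 0.11 and TXN2, the mitochondrial thioredoxin, at 0.02 ± 0.14. Of the glutathione genes, GCLM, the modifier subunit of glutathione synthesis, was at -0.06 ± 0.14 and GSR, which recycles glutathione, at 0.02 ± 0.09. NFE2L2, which encodes the NRF2 factor that drives many of these genes, was at 0.01 ± 0.13, its inhibitor KEAP1 at -0.01 ± 0.14 and the repressor BACH1 at 0.02 ± 0.15 (log2 fold change ± SE, limma).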

How the data were processed

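RNA-seq of 8 samples was used. The authors deposited 1 table of FPKM values per gene symbol and library. Per the submitters' processing notes fastp 0.20.1 and HTSeq (no version) were used. The aligner, build, annotation and strand setting were not given in the sources used here. Whole reads were recovered from the FPKM steps: 100.00% of 152348 values above 0 came out whole within a relative tolerance of 1e-06. Genes with a mean of at least 1 FPKM were tested with limma 3.58.1 (R 4.3.3, mean-variance trend, two-sided, Benjamini-Hochberg, threshold 0.05) on log2(FPKM + 1), fitted and adjusted over all 10720 genes. NOX4, under the filter, had an exact permutation test over 70 relabellings, whose smallest p is 0.0286. The steps were tested on simulated data. Replicates of a group were not duplicates: counts differed beyond sampling noise in every pair (chi-square per gene at least 8.35). GC content came from GENCODE v29 transcripts, for 95.6% of tested genes. Python 3.11.15 was used for the rest.

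The members and lists were chosen with earlier results of these data known. Named genes are the 10 members and, of each pathway list without a call, the 2 tested genes with the smallest p plus 12 relatives of the members. For the 2 members of widest range the 3 genes of most similar pattern are named. Alternatives were other pseudocounts, filters and scalings, no trend, the replicate block, each library left out, and 4 added after seeing the data.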

Additional observations from a re-analysis of the deposited data

How the results depend on the processing

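No gene and no member was called in any of 19 alternatives (15 fixed at the start, 4 added after seeing the data), and the smallest adjusted p of a member was 0.791. Of 185 member values, 17 had the opposite sign, none called, in 7 members. The largest was GPX1 without control replicate 3, at -0.13 against 0.0006 in the main fit. Other filters, no trend, the replicate block and a term for control replicate 3 and estradiol replicate 4 cannot move these fold changes. The share of 17 in 185 therefore understates how easily signs turned. Leaving out 1 library gave 4 of 4 turns for CAT, 3 of 4 for GPX1, 3 of 3 for TXN and 2 of 3 for SOD2. It also gave 1 of 1 each for CYBA, GPX4 and PRDX3. In fits that leave out 1 library, log2 fold changes ran from -0.18 to 0.0453 for CYBA, -0.0596 to 0.0698 for SOD2, -0.0610 to 0.0389 for CAT, -0.13 to 0.10 for GPX1, -0.19 to 0.0408 for GPX4, -0.12 to 0.0524 for PRDX3 and -0.0154 to 0.0708 for TXN. They kept their sign for SOD1 (0.0074 to 0.12), PRDX1 (0.02 to 0.11) and NOX4 (-0.13 to -0.05). Without control replicate 3 and estradiol replicate 4, SOD2 turned to 0.04 and GPX1 to -0.03. The cause was not tested. At a pseudocount of 0.1 the value of NOX4 was -0.19, since a smaller pseudocount shrinks low genes less. With the replicate number as a block, 0 genes and 0 members were called, and 11 genes had an unadjusted p under 0.05 against 26 without it. The deviations of same-numbered libraries correlated at 0.62, 0.07, -0.48 and -0.74, and 1 of 8 libraries correlated best with its own number. These correlations include the pattern shared by control replicate 3 and estradiol replicate 4, whose deviations correlated at 0.79. They therefore cannot show whether the numbers mark pairs. The numbers were not taken as pairs in the main fit. Unadjusted calls ranged from 4 genes (filter at 5 FPKM) to 437 (no filter, 23471 genes tested). Without control replicate 3 there were 183, without estradiol replicate 4 there were 82, without both 413, with a term for both 351 and after removal of the trend with GC content 267. Quantile normalization, the filter at 5 FPKM, no trend, the GC trend and voom were not run for NOX4, which is under the filter. For NOX4 the depth of 93 to 171 reads limits precision. Its coefficient of variation was 8.38% by counting, against 10.6% observed in control and 22.4% in estradiol libraries. For the other members too the spread between libraries exceeds counting error.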

Other observations

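GPX3, SRXN1, NOX1, SESN3, RAC1, LAPTM5 and CD68 are named here after their values were seen. RAC2, a GTPase known mainly from blood cells, was as abundant as the ubiquitous RAC1, at 108 to 157 FPKM against 98.6 to 114 FPKM over the 8 libraries. The blood cell markers PTPRC (0 to 2 reads per library), CYBB (0 or 1) and NCF4 (listed at 0) were near or at 0, while LAPTM5 stood at 45.3 to 52.3 FPKM and CD68 at 30.9 to 45 FPKM. GPX3, the secreted glutathione peroxidase, was at 21.8 to 30 FPKM, close to CAT. SRXN1, which repairs overoxidised peroxiredoxins, was at 328 to 371 FPKM, by mean between PRDX1 and TXN. NOX1, an oxidase best known from colon, was under the filter with 11 to 31 reads per library. It stood at 0.239 ± 0.0446 FPKM in controls and 0.154 ± 0.0465 FPKM with estradiol (mean ± SD of 4 libraries each, exact permutation p = 0.0571, two-sided, 1 of 18 genes in its list). SESN3, a sestrin under the filter with 1 to 8 reads per library, was higher with estradiol without overlap (exact permutation p = 0.0286, two-sided, the smallest possible). Both were picked from 53 pathway genes, and neither p is adjusted for that.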
